A study of Mus musculus with 15 samples.

Results

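Asynchronous replication domains were studied here by their gene content. An asynchronous (AS) domain is a stretch of a chromosome in which one parental allele was called as replicating earlier in S phase than the other. The members were all rows of the AS region list on the autosomes with a size of 300 kb or more, used as listed, and they numbered 233 of the 399 regions. Another 98 autosomal regions were smaller, and the others lay on the X chromosome. The cells were pre-B cells, precursors of B lymphocytes, grown from bone marrow of mice 10 weeks old on ST2 feeder cells with IL-7. The 4 F1 clones of a C57BL/6 (B6) and Castaneous (Cast) cross (E-5, Clone 2, Clone 3 and Clone 8) and pure Cast cells were each profiled in 3 replicates, 15 samples in all, after sorting into S and G1 phase. The label for strain background gives both strains for the pure Cast samples, which were grouped by their titles. Each F1 group is a single clone and stands for the progeny of a single cell. The design text calls the pure Cast cells clonal too, but a figure legend of the paper describes the pure-strain cells as a mixture. Whether the pure Cast group is clonal is therefore unsettled. All groups were grown with IL-7, and the labels name no further treatment.

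The list gives for each domain its position and its early allele, combined over the clones. It holds no timing value, no read count and no clone name, so the depth behind each domain is unknown, no level per sample can be printed and no spread between replicates can be given. Domains on the list are called Cast early or B6 early by the allele it names. Positions are on mouse build mm9, counted from 1, and genes are those of GENCODE version M1 on the same build. A gene was counted in a domain when at least 1 base of its body, between the outermost annotated transcript ends, overlapped it. The 233 domains held 132 Cast early and 101 B6 early domains and covered 141 Mb, 5.71% of the 2472 Mb of autosomal sequence. Size chose them, and it is given only as a description. They ran from 300 to 1700 kb with a median of 500 kb. Of the 53 domains of exactly 300 kb, just inside the limit, 8 had no protein-coding gene and the median was 2 genes. Of the 37 autosomal regions of 200 kb, just outside it, 13 had none and the median was 1 gene.

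Cells copy their DNA in a set order, and gene-dense, active chromatin is generally copied early while gene-poor chromatin is generally copied late. A difference between the alleles is known for imprinted genes, for the inactive X chromosome, for olfactory receptor arrays and for the antigen receptor loci of lymphocytes. Large gene deserts, very long genes and tandem gene families are different kinds of gene content, and the domains held all of them. None of the clones' cell identity could be checked with expression markers, because the list holds no expression values.

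Promoters of 4 genes show how unlike the starts of genes in these domains were. Bcl2, the apoptosis inhibitor, started inside the B6 early domain chr1:107850001-108950000 (promoter window chr1:108610818-108611117, minus strand). Fhit, which spans a common fragile site, contained the Cast early domain chr14:11250001-11550000, with its outermost start outside the domain (chr14:11994500-11994799, minus strand) and another RefSeq start inside it (chr14:11285923-11286222, minus strand). Skint1 and Skint6 belong to an array of genes that encode proteins of skin and thymus, and they started in a B6 early domain (chr4:111678624-111678923, plus strand) and in the next, Cast early domain (chr4:112959529-112959828, minus strand). Each line is the RefSeq sequence from 250 bases before to 50 bases after a start (build GRCm38.p6), placed on mm9 by an exact match, 5′ to 3′, and the capitals mark CG dinucleotides. Bcl2, Fhit and Skint1 were chosen among the genes named by rule and Skint6 after its position was seen.
Bcl2: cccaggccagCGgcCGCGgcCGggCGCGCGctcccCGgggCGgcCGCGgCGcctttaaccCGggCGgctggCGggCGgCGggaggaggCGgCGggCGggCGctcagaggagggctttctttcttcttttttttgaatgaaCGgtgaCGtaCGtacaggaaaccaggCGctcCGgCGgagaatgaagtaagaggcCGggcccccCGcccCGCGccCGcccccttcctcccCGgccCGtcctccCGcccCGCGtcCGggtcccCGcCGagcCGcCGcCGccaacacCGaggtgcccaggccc
Fhit, outer start: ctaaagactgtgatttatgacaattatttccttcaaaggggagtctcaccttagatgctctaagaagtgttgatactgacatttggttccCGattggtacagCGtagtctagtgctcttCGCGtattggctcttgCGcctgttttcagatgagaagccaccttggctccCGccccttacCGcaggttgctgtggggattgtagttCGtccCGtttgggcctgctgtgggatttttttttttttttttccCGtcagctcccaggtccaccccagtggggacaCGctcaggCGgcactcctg
Fhit, inner start: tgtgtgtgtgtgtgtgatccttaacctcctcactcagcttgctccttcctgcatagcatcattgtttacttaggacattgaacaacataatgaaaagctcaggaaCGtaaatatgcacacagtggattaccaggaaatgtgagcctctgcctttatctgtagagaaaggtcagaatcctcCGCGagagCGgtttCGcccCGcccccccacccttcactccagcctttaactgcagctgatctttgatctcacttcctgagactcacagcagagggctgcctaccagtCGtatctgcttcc
Skint1: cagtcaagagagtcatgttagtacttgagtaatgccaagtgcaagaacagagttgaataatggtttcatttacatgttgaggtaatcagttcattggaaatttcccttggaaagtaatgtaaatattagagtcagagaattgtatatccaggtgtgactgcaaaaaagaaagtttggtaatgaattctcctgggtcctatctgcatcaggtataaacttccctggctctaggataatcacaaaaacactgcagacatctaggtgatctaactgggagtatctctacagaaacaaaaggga
Skint6: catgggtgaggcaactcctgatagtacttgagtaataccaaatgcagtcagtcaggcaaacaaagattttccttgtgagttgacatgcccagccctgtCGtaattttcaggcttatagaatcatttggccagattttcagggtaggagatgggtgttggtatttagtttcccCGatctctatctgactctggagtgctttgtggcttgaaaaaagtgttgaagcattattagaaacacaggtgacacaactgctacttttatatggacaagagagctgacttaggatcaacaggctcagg
The Bcl2 window held 44 CG dinucleotides, the outer Fhit window 12 and the inner one 7. The Skint1 window held 0 and the Skint6 window held 2. The letters TATAAA, searched on both strands, occurred once in each of the Skint windows and in none of the other windows.

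Among autosomal protein-coding RefSeq genes, the promoter window of the same length held a median of 14 CG dinucleotides (each gene by the median of its starts), and 15% of the 16457 genes had TATAAA at 1 or more of their starts. A promoter was matched by symbol or synonym for 614 of the 844 genes that start in a domain, and 612 were counted after repeated symbols were joined. Their median was 10, and 21.1% had TATAAA. The 253 genes of gene-rich domains had a median of 4, and 24.1% had TATAAA. Without olfactory, vomeronasal and taste receptor genes, 157 were left with a median of 14 and a TATAAA share of 9.55%. In the other domains the median without such genes was also 14, with TATAAA in 19.3% of 347 genes. These shares are descriptions, and the genes of a domain share its base composition.

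The domains overlapped 933 of the 21418 autosomal protein-coding genes. That is 4.36% of the genes in 5.71% of the sequence. Of these, 768 lay wholly inside a domain and 844 had their start in one. The density of gene starts was 5.98 per Mb in the domains and 8.66 per Mb over the autosomes. A domain overlapped a median of 2 genes and a mean of 4.02 ± 5.67 (SD, n = 233), up to 66. No gene was found in 28 domains (12%), a single gene in 50 (21.5%), 2 to 4 genes in 86 (36.9%), 5 to 9 in 50 (21.5%) and 10 or more in 19 (8.15%). Domains of intermediate gene number thus made up the largest group. Some single genes were small provisional models, such as Gm17527 of 0.194 kb in a domain of 900 kb. Without genes of provisional name, 39 domains had no gene.

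**Figure D1:**
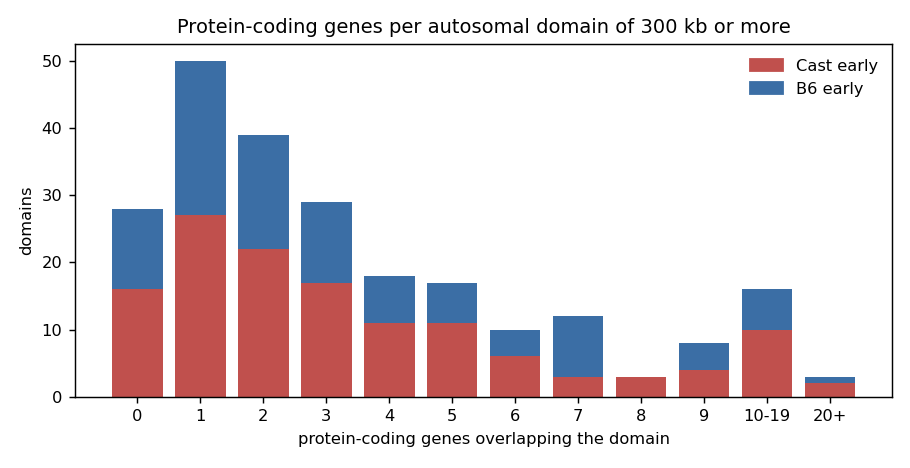
Number of domains (vertical axis) by the number of protein-coding genes that overlap them (horizontal axis), with the early allele in colour. Single-gene domains were the most frequent at 50, and 28 domains had no gene.

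To set these shares against the rest of the autosomes, gene numbers were counted at grid positions on the same chromosome for an interval of each domain's length. Only positions with at least 50% known bases were counted. At such positions 14.9% of intervals had no gene against 12% of the domains. Intervals with 10 or more genes made up 18.5% of positions against 8.15% of the domains. Intervals with 2 to 4 genes made up 27.4% of positions against 36.9% of the domains. The mean was 5.66 genes per position and 4.02 per domain. In single windows of 100 kb, 35.2% of the 23978 autosomal windows overlapped no gene, against 38.3% of the 1412 windows of the domains. Domains with no gene were thus below the background as whole intervals and above it as single windows, and no test was made of these differences.

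**Figure D2:**
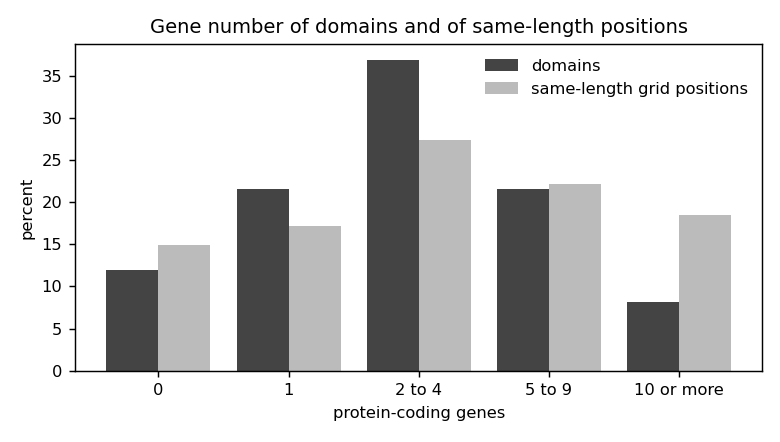
Percent (vertical axis) of the 233 domains (dark) and of the counted grid positions of the same lengths on the same chromosomes (light) by number of protein-coding genes (horizontal axis). The share with 10 or more genes was 8.15% in domains and 18.5% at the positions.

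The 28 gene-free domains lay on 14 chromosomes, covered 15.9 Mb and had a median size of 400 kb. Their median GC content was 38.3% (range 35.9 to 42.9), against 41% over all the domains. Of these, 16 were Cast early and 12 B6 early. The gene-free intervals around them, from the end of one protein-coding gene to the start of the next, ran from 0.601 to 4.52 Mb with a median of 1.56 Mb, and 21 domains lay in intervals of at least 1 Mb.

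The longest gene-free domain, chr5:59750001-61450000 (1700 kb, B6 early), took up 46.2% of an interval of 3.68 Mb. It lay 1229 kb after Pcdh7, a protocadherin, and 750 kb before G6pd2, a retrogene of glucose-6-phosphate dehydrogenase. The domain chr16:67650001-69050000 (1400 kb, Cast early) began 28.8 kb beyond Cadm2, a synaptic adhesion gene, and ended 807 kb before Speer2. The domain chr18:28050001-29050000 (1000 kb, B6 early) lay in the longest of these intervals, 4.52 Mb between Celf4, an RNA-binding protein gene, and Pik3c3, a lipid kinase gene. These genes were 2138 and 1382 kb away, so that domain stood in the interior of its interval.

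A Cast early domain at chr4:78550001-79450000 (900 kb) lay between Ptprd, a receptor phosphatase gene 692 kb before it, and Tyrp1, a pigment enzyme gene 1030 kb after it. On Chr16, the interval of 3.09 Mb between Ncam2, a neural adhesion gene, and Mrpl39, a mitochondrial ribosomal protein gene, held a pair of domains. The B6 early domain chr16:81750001-82450000 (700 kb) was followed without a gap by the Cast early domain chr16:82450001-83250000 (800 kb). These rows meet 825 kb from Ncam2 and 2268 kb from Mrpl39, with no protein-coding gene in either. The list does not name the clone behind a row, so it does not show that the early allele changes there within a clone. It was the only one of these intervals to hold 2 domains.

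The distance to the nearest gene varied widely. In all, 8 gene-free domains lay over 500 kb from any protein-coding gene and 5 lay within 50 kb of one. Among the latter, 3 were named after their values were seen. They ended 7.92 kb before Zfp462, a zinc finger gene (chr4:54650001-54950000, B6 early), 10.7 kb before Klf6, a transcription factor gene (chr13:5250001-5850000, Cast early), and 48.5 kb before Trib2, a pseudokinase gene (chr12:15350001-15750000, Cast early). These distances are below the 100 kb step of the grid, so the list cannot tell whether the gene starts in the domain or beside it.

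**Figure D3:**
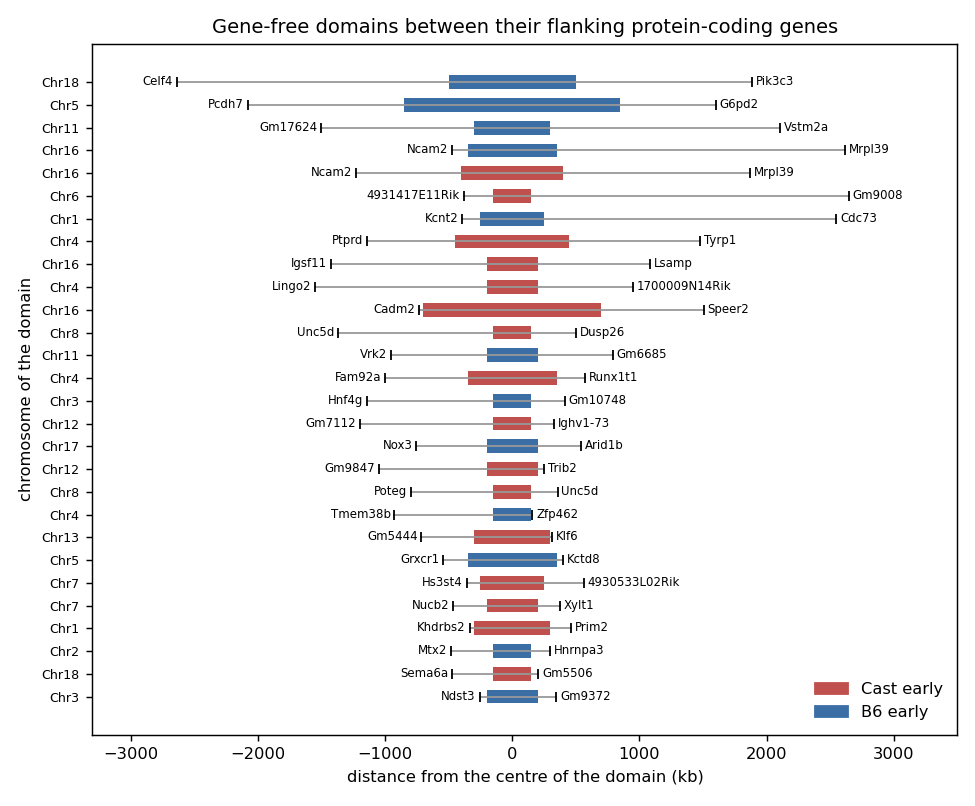
The 28 gene-free domains (bars, coloured by early allele) between their flanking protein-coding genes (ticks with names), sorted by the length of the interval, with the distance from the centre of the domain in kb on the horizontal axis and the chromosome on the vertical axis. Domains lay both in the interior and at the edge of their intervals, as at Cadm2, 28.8 kb away.

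Other gene types were annotated in most of the gene-free domains, and 9 had no gene of any type. Pseudogenes were found in 8 of them, snRNA genes in 5, snoRNA genes in 5, processed transcripts in 5, miscellaneous RNAs in 3, lincRNAs in 2 and miRNA genes in 2. One was gene-free only because its antigen receptor segments have a gene type of their own. That domain, chr12:116550001-116850000 (300 kb, Cast early), held 12 of the 112 V segments of the immunoglobulin heavy chain locus, among them Ighv1-59, Ighv1-63 and Ighv1-67. Ighv1-73, typed as protein-coding, was its flanking gene 179 kb further on, so the annotation is not uniform for such segments.

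These segments were looked at after the values were seen, since lymphocytes recombine such segments to make their receptors, B lineage cells those of the immunoglobulin loci and T lineage cells those of the T cell receptor loci. A total of 99 of the 481 autosomal antigen receptor segments lay in domains, in 3 domains. All of them were V segments, and of the 355 annotated V segments 27.9% were inside, against 4.36% of protein-coding genes and 5.71% of the sequence. No D, J or C segment was. On Chr6, chr6:70150001-70550000 (400 kb, B6 early) held 15 of the 99 V segments of the immunoglobulin kappa locus. On Chr14, chr14:53550001-54450000 (900 kb, Cast early) held 72 of the 108 V segments of the T cell receptor alpha and delta locus. The protein-coding genes of that domain include C920008G01Rik, Gm10905 and B230359F08Rik, with the current symbols Trav7d-6, Trav7n-6 and Trav13-5. Segments typed as protein-coding in this way are not in these counts. The segments of an array lie side by side, so they are not separate observations.

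Gene-rich domains, with 20 or more protein-coding genes per Mb, numbered 22 (9.44%, against 15% of the same-length positions). They held 324 genes, lay on 9 chromosomes and had a median size of 350 kb. Their median GC content was 43.7% (range 37 to 49.7). Of these domains, 13 were Cast early and 9 B6 early. Among them 5 consisted mostly of olfactory, vomeronasal or bitter taste receptor genes, and 16 had no such gene.

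The domain with the most genes, chr2:88650001-90150000 (1500 kb, B6 early), held 66, of which 65 were receptor genes. The second, chr7:30950001-31250000 (300 kb, Cast early), was the densest at 70 genes per Mb and had no receptor gene. Its 21 genes included Tyrobp and Hcst, signalling adaptors of natural killer and myeloid cells, Nfkbid, a regulator of NF-kappaB, Nphs1, the nephrin gene of the kidney filter, and Cox7a1, a subunit of cytochrome oxidase. Its GC content was 49.2%. The third, chr6:132550001-133050000 (500 kb, Cast early), held 20 genes, of which 18 were taste receptor genes.

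A pair of domains tied at 18 genes. The first, chr13:73650001-74350000 (700 kb, B6 early), held Tert, the catalytic subunit of telomerase, Trip13, a chromosome-pairing ATPase, and 3 transporter genes, Slc6a3 (dopamine), Slc6a18 and Slc6a19 (amino acids). The second, chr7:147850001-148150000 (300 kb, B6 early), held 3 olfactory receptor genes beside Cyp2e1, an ethanol-metabolising enzyme gene, Sirt3, a mitochondrial deacetylase gene, and Ifitm2, an antiviral membrane protein gene. Named after their values were seen, chr4:129150001-129450000 (300 kb, Cast early) had 16 genes with Lck, a T cell kinase gene, and Hdac1, a histone deacetylase gene, and chr2:130250001-130550000 (300 kb, Cast early) had 13 with Oxt and Avp, which encode oxytocin and vasopressin.

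The early allele did not differ detectably between these kinds of domain. The Cast early share was 57.1% of 28 gene-free domains (95% Wilson interval 39.1 to 73.5) and 56.6% of the other 205. The difference was 0.557 percentage points (95% Newcombe interval -18.7 to 18.3; two-sided Fisher's exact test p = 1, adjusted p = 1 over 2 comparisons). For the 22 gene-rich domains the share was 59.1% (interval 38.7 to 76.7) against 56.4% of the other 211. That difference was 2.69 points (-18.7 to 21.6; exact p = 1, adjusted p = 1). Differences of up to about 20 points either way lie within these intervals. The sign of both differences turned under other counting rules. The tests treat domains as units, so they describe this list and not mice or clones.

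At the other extreme, 9 genes contained a whole domain. In each case the gene was the only protein-coding gene there. Of these domains, 5 were Cast early and 4 B6 early. By definition these genes were longer than 300 kb and had their outermost start outside the domain.

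Cntnap2, a neurexin-family adhesion gene and among the longest genes of the mouse, spans 2241 kb at chr6:45010060-47251368. The Cast early domain chr6:46650001-47050000 (400 kb) lay inside it, 1640 kb from its start, and covered 17.8% of it with 8 exons. Fhit (chr14:10382606-11994549, 1612 kb) contained the Cast early domain chr14:11250001-11550000 (300 kb), 445 kb from its outermost start. Only 2 exons lay in it. A shorter RefSeq transcript has its start there, the inner Fhit promoter printed above. Accn1 (current symbol Asic2, an acid-sensing ion channel; chr11:80693671-81781959, 1088 kb) contained the Cast early domain chr11:81150001-81650000 (500 kb), in which it had 0 exons. That domain was intronic throughout.

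Nell1, a secreted growth regulator gene of 890 kb, contained a Cast early domain of 400 kb (chr7:57550001-57950000) with 2 exons. Ctnnd2, the delta-catenin gene of neurons, 857 kb long, contained a B6 early domain of 400 kb (chr15:30350001-30750000) with 9 exons. Ryr3, a calcium release channel gene of 586 kb, contained a B6 early domain of 300 kb (chr2:112550001-112850000) that held 73 exons, counting every distinct annotated one. Intron-rich and exon-rich parts of long genes were therefore both covered.

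The last 3 were the shortest. In Sox6, a transcription factor gene of 567 kb, the B6 early domain chr7:122850001-123150000 (300 kb) began 32.3 kb from the start. In Slc9a9, an endosomal proton exchanger gene of 561 kb, the B6 early domain chr9:94750001-95050000 (300 kb) took up 53.5% of the gene. In Gtdc1, a glycosyltransferase-like gene of 363 kb, the Cast early domain chr2:44450001-44750000 (300 kb) took up 82.6%. Domain ends in Sox6 and Gtdc1 were within 1 grid step of the gene's own start.

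**Figure D4:**
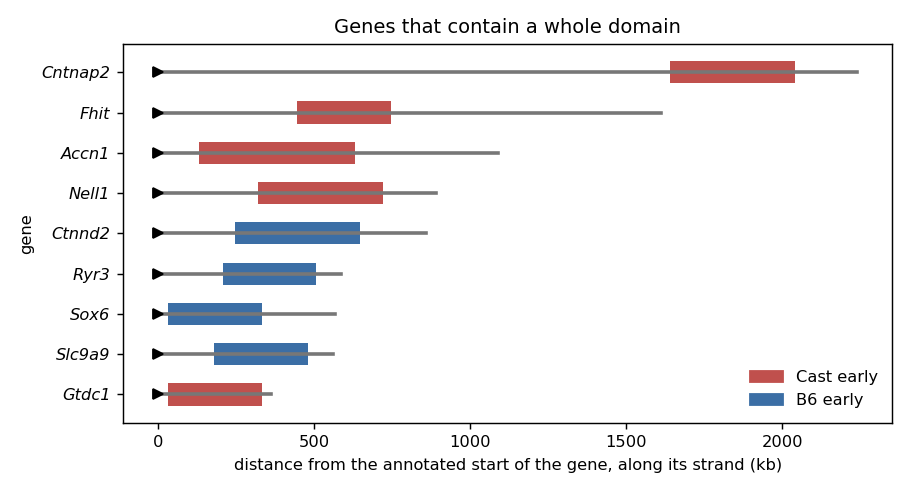
The 9 genes that contain a whole domain (lines, with an arrowhead at the annotated start) and the domain in each (bars, coloured by early allele), with the distance along the gene in kb on the horizontal axis. The domain lay 1640 kb from the start in Cntnap2 and 32.3 kb from it in Sox6.

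More broadly, 30 genes were longer than a domain that they overlapped, in 29 domains. From the first to the last coding base, 24 of these were still longer than the domain, and 22 when this coding span itself had to overlap it. The share of genes that overlapped a domain rose from 4.26% of those under 10 kb and 3.44% of those of 10 to 100 kb to 8.31% at 100 to 500 kb and 17% (32 of 188) at 500 kb or more. A longer gene has more bases with which to overlap a domain. By bases, 7.19% of the sequence of the genes of 500 kb or more lay in domains, against 3.52% for genes of 10 to 100 kb and 5.56% for all genes.

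A domain boundary cut 165 genes, 17.7% of those that overlapped a domain. Of the 466 boundaries, 175 (37.6%) lay inside a gene, against 39.5% of all 23978 autosomal grid positions. Boundaries thus fell inside genes at about the rate of the grid itself. The cut genes had a median length of 200 kb, against 12.3 kb for genes wholly inside a domain. The start of the gene was inside the domain for 76 of the 165. With the grid at 100 kb, a cut is firmer where much of the gene lies on either side, and 123 genes had at least 10 kb and 66 at least 50 kb on both sides.

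Among the 10 longest cut genes, which include Cntnap2 and Fhit, a pair had their start inside the domain. Dlg2, a postsynaptic scaffold gene of 1945 kb, had its first 300 kb (15.4%) in the Cast early domain chr7:97350001-97950000. Nrxn3, a presynaptic neurexin gene of 1612 kb, had its first 489 kb (30.3%) in the B6 early domain chr12:89650001-90450000. The others reached the domain with a later part. Pde4d, a cyclic AMP phosphodiesterase gene of 1504 kb, had its last 394 kb in a B6 early domain (chr13:110350001-110750000). Opcml, an opioid-binding adhesion gene of 1135 kb, had 183 kb (16.1%) in the B6 early domain chr9:28550001-29450000, and its neighbour Ntm, or neurotrimin, had 66.9% of its 968 kb in the same domain. Agbl4, a carboxypeptidase gene of 1267 kb, had 86.9 kb (6.86%) in the B6 early domain chr4:111250001-112350000.

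For 3 of the 10 the great length rested on outlying annotated exons. Ptprd spans 2271 kb but its coding part 380 kb, of which the 3′ end lay in the Cast early domain chr4:74250001-75750000. Arfip1, a vesicle trafficking gene, spans 1391 kb with a coding span of 50.3 kb, and Lrrc4c, a netrin ligand gene, 1313 kb with 1.92 kb. The parts inside their domains were 163 kb, 50 kb and 21.8 kb.

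A further 3 genes reached into 2 domains each, with the same early allele in both. Zmat4, a zinc finger gene on Chr8, had 77.5% of its 521 kb in one Cast early domain and 3.28% in the next. Caln1, a calcium-binding protein gene on Chr5, had 0.988% and 77.8% of its 471 kb in a pair of B6 early domains. Ttn, the titin gene of muscle on Chr2, had 2.86% and 25.3% of its 279 kb in a pair of B6 early domains. The small shares of Caln1, Ttn and Zmat4 were all less than a grid step.

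Of the 50 domains with a single gene, 17 were covered over 50% by it, 17 under 10%, and in 14 the gene was longer than the domain. Single-gene domains thus ranged from stretches filled by a long gene to stretches mostly without one.

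Apart from the Tas2r, Ugt1a, Olfr and Cxcl genes, 11 families had 3 or more genes in a domain, in 12 domains. A family was the set of symbols that are the same once the last number, with a letter that may follow it, is taken off. Families told apart by letters alone are not counted, such as Retnla, Retnlb and Retnlg, resistin-like genes in the B6 early domain chr16:48250001-49050000 (800 kb). Families with numbers at more than one place of the symbol can be missed too, such as Krtap16-7, Krtap8-1, Krtap7-1 and Krtap11-1, keratin-associated protein genes in the Cast early domain chr16:89250001-90250000 (1000 kb). Genes with provisional symbols are left out as well, such as Gm4684 and Gm6662 (current symbols Scgb2b7 and Scgb1b7) in the Cast early domain chr7:32150001-32950000 (800 kb). All these examples were named after the genes of their domains were seen. The rule counts Vmn2r and Vmn2r-ps as separate families. The 11 families fell into chemosensory receptors, immune genes and membrane or metabolic proteins. No domain held 2 of these families.

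The largest was Vmn1r, the type 1 vomeronasal pheromone receptors. The Cast early domain chr13:22850001-23450000 (600 kb) held 15 of them among 17 genes, on both strands, and another 17 lay outside within 1 Mb. A second Cast early domain, chr6:66550001-67450000 (900 kb), held Vmn1r33 to Vmn1r39, which are 7 genes within 194 kb. A set of 4 Vmn2r genes, of the type 2 receptors, made up all the genes of the Cast early domain chr5:109650001-109950000 (300 kb), and 3 genes with Vmn2r-ps symbols lay in a Cast early domain of 800 kb on Chr13. Over the vomeronasal receptor list, 30 of 326 genes (9.2%) overlapped a domain, against 4.36% of all genes. By bases the order was the other way, with 3.1% of the list's gene sequence inside against 5.56% for all genes. These are neighbouring copies in a few arrays, and they are not independent of each other.

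The Skint genes encode butyrophilin-like proteins of skin and thymus, of which Skint1 acts in selecting gamma-delta T cells. These genes were split between alleles. The B6 early domain chr4:111250001-112350000 (1100 kb) held 7 of them (Skint1, Skint2, Skint3, Skint4, Skint7, Skint8 and Skint9) within 733 kb. Skint5 and Skint6, named after their values were seen, reached into the Cast early domain chr4:112750001-113550000, which begins 400 kb further on. In all 9 of 11 Skint genes overlapped a domain, against 4.36% of all genes. Of Skint6, 43.4% lay inside that domain, and the rest lay in the stretch between the domains, which is not on the list. The list does not show where, or in which clone, the early allele changes.

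Of the 11 Gbp genes, the interferon-induced guanylate-binding proteins, 6 (against 4.36% of all genes) lay in the Cast early domain chr5:105450001-105850000 (400 kb), all on the minus strand. They were Gbp4, Gbp6, Gbp8, Gbp9, Gbp10 and Gbp11, and Lrrc8b, a volume-regulated channel subunit gene, was the other gene there. A group of 4 Serpinb genes, intracellular protease inhibitors, lay at the end of the B6 early domain chr1:107850001-108950000 (1100 kb), and 7 more lay outside it within 1 Mb. The same domain held Bcl2. The family rule grouped 3 H2-M genes, non-classical class I antigens (H2-M1, H2-M9 and H2-M11), in the B6 early domain chr17:36650001-36950000 (300 kb), which also held H2-M10.5 and H2-M10.6.

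All 5 Il1f genes, ligands of the interleukin 1 family (Il1f5, Il1f6, Il1f8, Il1f9 and Il1f10), lay within 141 kb in the B6 early domain chr2:23850001-24150000 (300 kb). Receptors of the same cytokine family lay in a Cast early domain, chr1:40050001-41350000 (1300 kb): Il1r1, Il1r2, Il1rl1, Il1rl2, Il18r1 and Il18rap. Il12rb2 and Il23r, chains of other interleukin receptors, lay beside the Vmn1r genes in the Cast early domain of Chr6. Over the list of interleukins, interferons and their receptors, 13 of 101 genes (12.9%) overlapped a domain, against 4.36% of all genes, and all 13 were in these 3 clusters. By bases, 22.8% of the list's gene sequence lay inside, against 5.56% for all genes.

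The other families were transporters, channels and enzymes. Scn1a, Scn9a and Scn7a, of the voltage-gated sodium channels, lay in the Cast early domain chr2:65850001-67450000 (1600 kb). Scn3a of the same cluster and 62.1% of Scn2a1 lay in the B6 early domain chr2:64850001-65550000 (700 kb). The rest of Scn2a1 lay beyond the end of that domain. On the list the cluster was thus divided between domains of opposite early allele. The last domain, with Scn2a1, was looked at after its genes were seen. The 3 Slc6a transporters were in the Tert domain described above. Akr1b3, Akr1b8 and Akr1b10, the aldose reductase genes, were in the Cast early domain chr6:33950001-34350000 (400 kb), with Akr1b7 outside.

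**Figure D5:**
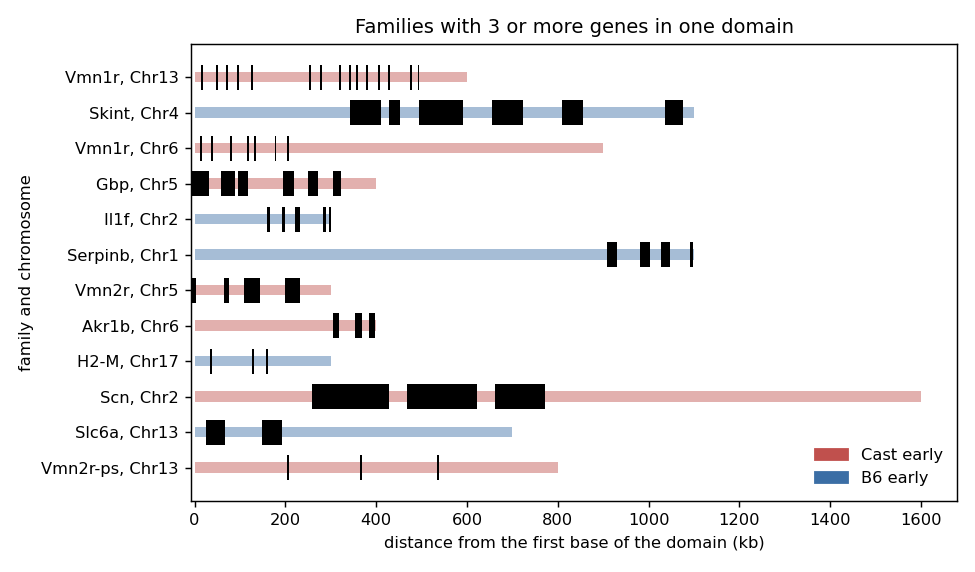
Genes of each family (black) along the domain that holds them (bar, coloured by early allele), with the distance from the first base of the domain in kb on the horizontal axis and genes under 4 kb drawn 4 kb wide. The Serpinb and Akr1b genes lay at the end of their domains, and the 15 Vmn1r genes of Chr13 were spread over 478 kb.

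Other lists of genes were counted in the same way. Of 41 genes on a list of long genes, many of them of neuronal adhesion and synapses, 7 overlapped a domain (17.1%), against 4.36% of all genes. They were Ptprd, Cntnap2, Dlg2, Nrxn3, Opcml and Ntm, and Fhit, which encodes a nucleotide hydrolase and is on the list for its length. By bases, 5.17% of the list's gene sequence lay inside against 5.56% for all genes. The next 5 lists are to be read against the same 4.36%, which amounts to about 1 gene in a list of 30. Of 30 early B lineage genes, Bcl2 was the only one that overlapped (3.33%), and 8.87% of the list's gene sequence lay inside, above the 5.56% for all genes. Of 28 imprinted genes none did. Of 66 protocadherin, cadherin and Slitrk genes 2 did (3.03%), with 6.43% of the list's gene sequence inside. They were Cdh18, a neuronal cadherin with 61.7% of its 925 kb in the Cast early domain chr15:22150001-23050000, and Pcdh18 (chr3:49450001-50350000, Cast early). Of 60 killer cell lectin-like and C-type lectin genes 1 did (1.67%, and 0.332% by bases), Clec14a, an endothelial lectin gene in a Cast early domain of Chr12. Of 138 ribosomal protein genes 3 did (2.17%, and 0.492% by bases), of which Rpl21 is the one without a pseudogene symbol.

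MicroRNA genes, small RNAs that pair with messenger RNAs through their seed, numbered 61 in the domains, or 4.16% of the 1468 annotated on the autosomes, close to the 4.36% of protein-coding genes. Of these, 13 had a miRNA symbol, and they were named after their values were seen. RefSeq held 12 of them, and all 12 hairpins were found unchanged at those places on mm9. The clusters are printed because their members lie side by side in a domain. Capitals mark the seed, bases 2 to 8.
mmu-miR-199a-5p: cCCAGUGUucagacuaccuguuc
mmu-miR-199a-3p: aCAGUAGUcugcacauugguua
mmu-miR-214-5p: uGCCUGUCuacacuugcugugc
mmu-miR-214-3p: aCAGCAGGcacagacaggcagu
Mir199a-2 and Mir214 lay in the Cast early domain chr1:163950001-164450000 (500 kb), with 3 protein-coding genes.
mmu-miR-216b-5p: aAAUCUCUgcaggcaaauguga
mmu-miR-216a-5p: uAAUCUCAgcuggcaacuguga
mmu-miR-217-5p: uACUGCAUcaggaacugacugga
Mir216b, Mir216a and Mir217 lay in the Cast early domain chr11:28150001-28950000 (800 kb), also with 3 protein-coding genes.
mmu-let-7g-5p: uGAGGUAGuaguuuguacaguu
mmu-miR-135a-5p: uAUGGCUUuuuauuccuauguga
Mirlet7g and Mir135a-1 lay in the Cast early, gene-rich domain chr9:105850001-106150000 (300 kb), beside Alas1, the heme synthesis enzyme gene, and Tlr9, the sensor of unmethylated DNA. The seeds of miR-216b-5p (AAUCUCU) and miR-216a-5p (AAUCUCA) differed in their last base alone, and no 2 of the printed seeds were identical over all 7 bases. The remaining named genes were single. Mir488, Mir1904 and Mir128-2 were in B6 early domains, and Mir467h, Mir874 and Mir1186 in Cast early ones.

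For the other non-coding types, to be read against the same 4.36% of protein-coding genes and 5.71% of the sequence, the domains held 22 of 307 rRNA genes (7.17%), 59 of 1232 lincRNA genes (4.79%), 111 of 2437 processed transcripts (4.55%), 54 of 1331 snRNA genes (4.06%), 51 of 1458 snoRNA genes (3.5%), 21 of 458 miscellaneous RNAs (4.59%), 224 of 4055 pseudogenes (5.52%) and 0 of 8 polymorphic pseudogenes. V segments, at 27.9%, stood apart from all of these by their share, in 3 arrays.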

How the data were processed

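The authors sorted pre-B cells into S and G1 phase and sequenced the DNA to about 10 M reads of 75 bp per library, per the labels. They mapped the reads to mm9 with Bowtie2, determined SNPs with BCFtools from a SAMtools pileup, and reassigned the reads to alleles with GSNAP (versions not given in the sources used here). Ratios of S to G1 reads were smoothed at 100 kb, and the alleles were compared per window by a likelihood-ratio test over the 3 replicates of a clone. They left out regions whose timing also differed between the pure strains and combined the 4 clones. The deposited list has no count, ratio or score, only start, end and earlier allele. The build is not in its header and follows the methods. In all, 0 regions ran past a chromosome end and 0 boundaries were off a 100 kb grid (offset 50 kb). Boundaries can therefore be no finer than the 100 kb step of the grid, and their error was not measured.

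Genes of GENCODE M1 on mm9 were counted with Python 3.11.15, scipy 1.17.1, numpy 2.4.6 and pysam 0.24.0. The GC content of a domain was taken over all its known bases. Single windows and same-length positions were counted only with at least 50% known bases. Symbols were updated through RefSeq (896 of 933 matched by symbol or synonym, 70 changed). Early alleles were compared by Fisher's exact test, two-sided, with a threshold of 0.05 and Benjamini-Hochberg adjustment over 2 comparisons. Named were the 5 longest gene-free domains and their flanking genes, the 5 domains with most genes, the 10 longest genes that contain or are cut by a domain, up to 12 families and 10 members per gene list, and other names are marked in the text. The members and lists were chosen with earlier results of these data known. The counting functions were tested on simulated data. Alternatives changed the overlap rule, the boundaries by 100 kb, the size limit, joining of touching rows, the gene set and the limits for gene-rich domains, cuts and families.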

Additional observations from a re-analysis of the deposited data

How the results depend on the processing

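No paired analysis was possible because the list combines all clones and replicates, and no replicate could be left out for the same reason. Of 91 alternatives, 55 kept the direction of the difference or stayed within 1.5 times the main count; 24 counts moved further and 12 differences changed sign. Neither difference in early allele passed the threshold under any of them, and the lowest p of Fisher's exact test was 0.143. For gene-free domains the difference in Cast early share was -5.4 points when a gene was placed by its start, -3.46 by the whole gene, -1.81 with domains widened and -1.67 with domains narrowed by 100 kb at each end, -0.186 from 500 kb, -1.03 with touching rows joined, -3.37 without provisional gene names and -1.24 with antigen receptor segments counted. For gene-rich domains it was -1.81 by gene start, -4.38 with widened domains, -4.2 from 500 kb and -4.38 without provisional names, but 11.7 with no size limit, 8.75 from 200 kb, 7.08 at 10 or more genes and 4.83 by whole gene. The gene-free difference likewise rose to 6.28 with no size limit, 5.34 from 200 kb and 2.25 by exons.

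Gene-free domains numbered 44 by gene start, 61 by whole gene, 47 narrowed, 13 from 500 kb and 62 with no size limit. Gene-rich domains numbered 6 from 500 kb, 45 with no size limit and 54 at 10 or more genes per Mb. Overlapping genes numbered 609 with narrowed domains and 602 from 500 kb. Cut genes numbered 99 from 500 kb and 66 with 50 kb on both sides. Genes longer than a domain numbered 61 narrowed, 15 from 500 kb and 58 with no size limit, and genes that contain one 5 widened, 17 narrowed, 1 from 500 kb and 18 with no size limit. Families numbered 31 at 2 or more genes, 6 at 4 or more, 19 widened, 5 narrowed and 6 from 500 kb. A higher size limit leaves fewer domains, and wider or narrower domains hold more or less sequence. The alternatives with receptor segments, receptor genes left out and coding spans were chosen after seeing the data. Depth at each domain is unknown.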
